A study of Homo sapiens with 12 samples.

Results

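The interferon-induced IFIT genes (IFIT1, IFIT2, IFIT3 and IFIT5) and OAS genes (OAS1, OAS2, OAS3 and OASL) were followed in TMD8, an established line of human lymphoma cells (diffuse large B cell lymphoma, ABC or activated B cell type), after knockdown of the transcription factor IRF4. The 8 genes were taken by symbol from the 26318 genes of the deposited table, and all 8 were found and had enough counts to be tested. The poly(A) libraries came from cells with a scramble short hairpin RNA (shRNA; 6 controls) or with an shRNA against IRF4 (6 libraries), pelleted at 24 h. Library names carry a number 1 or 2, called library series 1 and 2 here, with 3 libraries of each group in each; what the number stands for, the hairpin sequences and whether libraries of a group were separate cultures are not stated in the labels. All titles name TMD8, although another label counts the cell line name upward from sample to sample.

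IFIT and OAS genes are classical targets of type I interferon, which signals through JAK kinases to transcription factors that bind the interferon-stimulated response element (ISRE) in promoters. IFIT proteins bind foreign RNA by its end: IFIT1 recognises caps that lack a methyl group found on most host messages, IFIT2 and IFIT3 are its partners, and IFIT5 binds RNA with an uncapped triphosphate end. OAS enzymes are switched on by double-stranded RNA and make short oligoadenylates, which act as second messengers of the antiviral response. OASL has lost this activity and modulates nucleic acid sensing. IRF4 is known to bind DNA at ISREs and, together with the ETS factors PU.1 or SPIB, at composite elements (EICE).

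The 4 IFIT genes lie in a row on chromosome 10 (hg38, plus strand): IFIT2 from 89283694 to 89309271, IFIT3 from 89327997 to 89340971, IFIT1 from 89392546 to 89406487 and IFIT5 from 89414568 to 89420997. OAS1 (112906783 to 112933222), OAS3 (112938444 to 112973251) and OAS2 (112978395 to 113011723) form a cluster on the plus strand of chromosome 12, and OASL (121019111 to 121039242, minus strand) lies apart on the same chromosome. Because the members move together, RefSeq start regions (GRCh38.p14) are shown for the 5 of the 8 in the promoter set used (IFIT1, IFIT3, IFIT5, OAS1 and OAS3). They run from 160 bases before to 6 bases after the start site, 5′ to 3′ on the plus strand. Capitals mark every match, on either strand, to an ISRE core (GAAA, any 2 bases, GAAA) or an EICE core (GGAA, any 2 bases, GAAA); on the other strand GAAA reads TTTC and GGAA reads TTCC:
IFIT1 (chr10:89392463-89392628): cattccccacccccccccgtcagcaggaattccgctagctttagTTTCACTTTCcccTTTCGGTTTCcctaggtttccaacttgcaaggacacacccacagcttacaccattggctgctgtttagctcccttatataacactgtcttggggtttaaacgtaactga
IFIT3, upstream start (chr10:89327837-89328002): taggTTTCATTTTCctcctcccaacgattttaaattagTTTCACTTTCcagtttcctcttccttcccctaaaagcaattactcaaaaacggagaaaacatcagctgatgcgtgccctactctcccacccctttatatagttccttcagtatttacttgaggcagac
IFIT3, downstream start (chr10:89332369-89332534): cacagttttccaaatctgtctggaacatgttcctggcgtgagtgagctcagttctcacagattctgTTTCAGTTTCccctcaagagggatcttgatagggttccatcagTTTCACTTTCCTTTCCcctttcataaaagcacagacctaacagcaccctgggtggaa
IFIT5 (chr10:89414408-89414573): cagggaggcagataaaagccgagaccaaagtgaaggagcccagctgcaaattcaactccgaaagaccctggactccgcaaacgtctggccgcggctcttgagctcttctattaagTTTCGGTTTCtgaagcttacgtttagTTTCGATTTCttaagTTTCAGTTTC
OAS1 (chr12:112906802-112906967): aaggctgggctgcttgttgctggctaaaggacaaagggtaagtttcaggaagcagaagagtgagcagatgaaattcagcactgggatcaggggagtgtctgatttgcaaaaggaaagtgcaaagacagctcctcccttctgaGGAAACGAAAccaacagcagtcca
OAS3 (chr12:112938314-112938479): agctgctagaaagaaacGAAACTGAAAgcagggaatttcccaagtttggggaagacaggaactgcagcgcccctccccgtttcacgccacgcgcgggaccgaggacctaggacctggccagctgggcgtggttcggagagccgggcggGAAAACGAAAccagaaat

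In the 300-base windows from which these stretches come, ISRE letters were found at 4 of the 5 genes and in 5 of the 6 windows, with 11 matches in all. Of 35116 RefSeq promoter windows of that length, 3.57% held the ISRE letters and 2.82% the EICE letters. IFIT5 held 3 ISRE matches, the last of which spans the start site (bases -4 to 6), and the others with ISRE letters held 2 in each window. GAAAGTGAAA, printed above as TTTCACTTTC, occurred at IFIT1 (bases -116 to -107 from the start) and at both starts of IFIT3. At the downstream start of IFIT3 an ISRE match (bases -51 to -42) overlaps an EICE match (bases -45 to -36). OAS1 had no match to the ISRE core, with its gap of 2 bases, and held GGAAACGAAA, an EICE match, at bases -18 to -9. That match also holds GAAACGAAA, in which the GAAA runs lie closer than 2 bases apart. Such a spacing was not searched for, so an ISRE of that form is not counted here. A match is a run of letters and does not show binding. IFIT2, OAS2 and OASL were not examined for motifs.

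IRF4, the target, checked the labels. It ran from 1426 to 1570 CPM (counts scaled to a common library size, with TMM) in controls and from 507 to 715 CPM with IRF4 shRNA, 41.2% of the control mean (exact two-sided permutation p = 0.00216, the smallest that 6 against 6 can give). Library totals ran from 31.3e6 to 38.2e6 counts, so 3 counts in a library correspond to 0.0786 to 0.0959 CPM. Control replicates 5 and 6 stood apart from the other controls: across genes, which are not independent, the Spearman correlation of their deviations from the group mean with transcript GC content was 0.42 and 0.60, against -0.50 to -0.05 in the other 4. With IRF4 shRNA it was positive in series 1 (replicates 1 to 3) and negative in series 2. The B cell markers MS4A1, CD79A, CD79B, CD22 and PAX5 summed to 4383 to 4977 CPM across control libraries, against 6097 to 6517 CPM after knockdown. Of these, 4 of 5 were called higher, from 1.12-fold (PAX5) to 2.04-fold (CD22). The 2 natural killer cell markers in the table (KLRD1 and NCR1) were at 0 in all libraries. Sums were at most 7.78 CPM for T cell (3 of 5 markers in the table), 0.87 CPM for monocyte and macrophage (3 of 4), 6.91 CPM for fibroblast (2 of 2, both higher) and 0.0868 CPM for epithelial markers (2 of 2, KRT18 at 0). Plasmacytoid dendritic cell markers (LILRA4, IL3RA and CLEC4C) summed to 20.2 to 22.9 CPM across controls, against 14.8 to 17.3 CPM after knockdown (LILRA4 higher, IL3RA and CLEC4C lower). Over all tested genes 24.2% were called higher and 23.9% lower. The part of these markers in the results was not tested.

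All 8 IFIT and OAS genes were higher with IRF4 shRNA, and 7 of them, all but OAS1, by more than 2-fold. IFIT1 rose most, 51.4-fold, followed by IFIT3 (31.2-fold) and OASL (22.1-fold), and OAS1 rose least, 1.89-fold. By edgeR's quasi-likelihood test with Benjamini-Hochberg adjustment over 16437 genes, 8 of 8 passed in the upward direction, where 24.2% of all tested genes did. A rise of at least 2-fold was called for 5.65% of all tested genes. The share of upward calls among all called genes was 50.3%, and 63.9% with library size alone. In all 8 genes every IRF4 shRNA library lay above every control library, as in 16.2% of tested genes (30.8% in either direction). The median log2 fold change was 3.50 over the 8 genes and -0.01 over all genes tested. In bulk RNA, more cells with a transcript and more transcript per cell cannot be told apart.

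**Figure D1:**
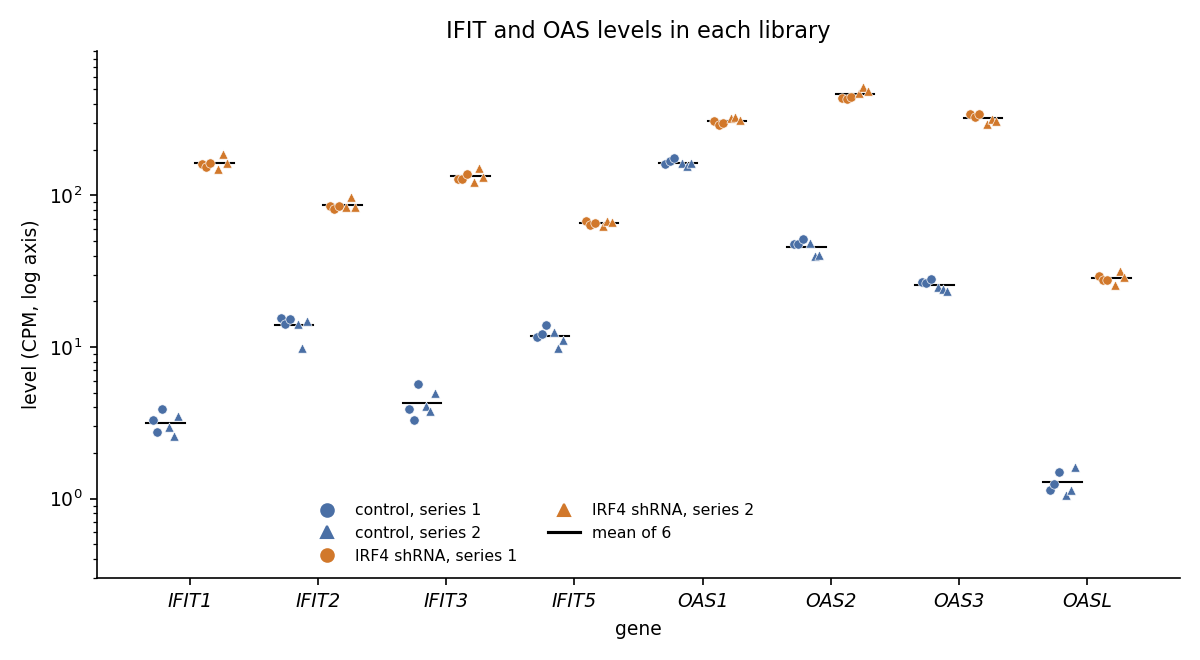
Level of each IFIT and OAS gene (CPM, log axis) in the 6 control and 6 IRF4 shRNA libraries, with circles for library series 1, triangles for series 2 and a line at the mean of each group. The groups are separate for all 8 genes, with the widest gap at IFIT1 and the narrowest at OAS1 (155 to 176 CPM in controls, 291 to 327 CPM with IRF4 shRNA).

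Among the IFIT genes, IFIT1, the cap sensor, was almost silent in controls, at 2.60, 3.14 and 3.89 CPM (lowest, median and highest library; 85 to 121 counts). With IRF4 shRNA it stood at 149, 162 and 188 CPM. Its log2 change was 5.68 (SE 0.09, edgeR adjusted p = 2.32e-15). The 2 groups were far apart, and the spread within them was small beside the difference: 3.17 ± 0.482 against 163 ± 13.7 CPM (SD, n = 6 each). Among the 16437 tested genes IFIT1 had rank 21 by fold change.

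IFIT3, which binds and stabilises IFIT1, was also low in controls. It ran from 3.32 CPM (control replicate 2) to 5.72 CPM (control replicate 3), with a median of 3.99, and from 123 to 152 CPM with a median of 131 in IRF4 shRNA libraries. Its log2 change was 4.96 (SE 0.11, edgeR adjusted p = 4.3e-14) at rank 26. Its controls were the most variable of the 8 genes relative to their mean (SD 20.5% of the mean), and the groups still did not overlap.

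IFIT2 and IFIT5 rose less, from higher levels per length in controls. IFIT2, an RNA-binding partner of the other IFIT proteins, lay between 9.80 and 15.5 CPM in controls (median 14.5) and between 81.3 and 98.1 CPM (median 84.6) with IRF4 shRNA. That is a 6.19-fold rise (log2 2.63, SE 0.09, edgeR adjusted p = 7.66e-12). The value of 9.80 CPM came from control replicate 5, while the other 5 controls lay at 14.2 CPM or above. IFIT5, which binds triphosphate RNA alone, lay between 9.83 and 13.9 CPM in controls (median 11.9). With IRF4 shRNA it lay between 62.5 and 68.1 CPM (median 66.2), the tightest of the 8 genes (SD 3.25% of the mean). It rose 5.54-fold (log2 2.47, SE 0.07, edgeR adjusted p = 4.35e-13). In both genes the groups were far apart, and their profiles across the 12 libraries were the most alike of any pair of members. The root mean square difference between their centred log2 CPM was 0.145.

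Among the OAS genes, OAS1 had the highest control level per length and the smallest rise. It ran from 155 to 176 CPM in controls (median 163) and from 291 to 327 CPM with IRF4 shRNA (median 314). The log2 change was 0.92 (SE 0.04, edgeR adjusted p = 4.34e-11), at rank 1054 of all tested genes. The highest control (replicate 3) still lay below the lowest IRF4 shRNA library (replicate 2). Of the 5 start regions examined, that of OAS1 alone had no match to the ISRE core with its gap of 2 bases. Any relation to the size of its rise was not tested.

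OAS2 and OAS3, larger synthetases with repeated OAS units, rose by an order of magnitude. OAS2 ran from 39.9 to 51.3 CPM in controls (median 47.8) and from 431 to 522 CPM with IRF4 shRNA (median 460). Its log2 change was 3.35 (SE 0.07, edgeR adjusted p = 4.12e-14). OAS3, the longest of the synthetases, ran from 23.6 to 28.1 CPM in controls (median 25.7) and from 294 to 346 CPM with IRF4 shRNA (median 326). Its log2 change was 3.66 (SE 0.06, edgeR adjusted p = 1.95e-15). Neither gene had groups that overlapped. OASL, the family member without enzyme activity, was the lowest of the 8 per length in controls, at 1.05 and 1.62 CPM (lowest and highest library; median 1.19; 33 to 56 counts). It reached 25.5 to 31.9 CPM (median 28.3) with IRF4 shRNA, a log2 change of 4.47 (SE 0.10, edgeR adjusted p = 4.98e-14).

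Summed over the 8 genes, the level was 271 ± 16.2 CPM in controls, against 1580 ± 69.3 CPM after knockdown (SD, n = 6 each). The IFIT genes summed to 33.3 ± 4.13 and 449 ± 30.9 CPM, and the OAS genes to 238 ± 12.5 and 1131 ± 40.4 CPM. The makeup of each family was compared per length, as CPM per kb of merged exons (GENCODE release 29). IFIT2 and IFIT5 held 39.1% ± 2.94 and 34.2% ± 2.21 of the IFIT total per length in controls, and 17.0% ± 0.441 and 13.3% ± 0.667 with IRF4 shRNA. IFIT1 went from 7.92% ± 0.520 to 28.6% ± 0.439 and IFIT3 from 18.8% ± 2.67 to 41.1% ± 0.600, and for each of the 4 genes the shares in the 2 groups did not overlap. In the OAS family OAS1 held 75.5% ± 1.14 in controls and 34.1% ± 0.720 with IRF4 shRNA. OAS2 went from 16.6% ± 1.08 to 40.3% ± 1.62, OAS3 from 7.06% ± 0.267 to 21.3% ± 1.75 and OASL from 0.827% ± 0.141 to 4.38% ± 0.234. Which of OAS1 and OAS2 holds the larger share with IRF4 shRNA depends on the length used. Per length of the longest transcript OAS1 stayed above OAS2 (129 and 98.6 CPM per kb).

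**Figure D2:**
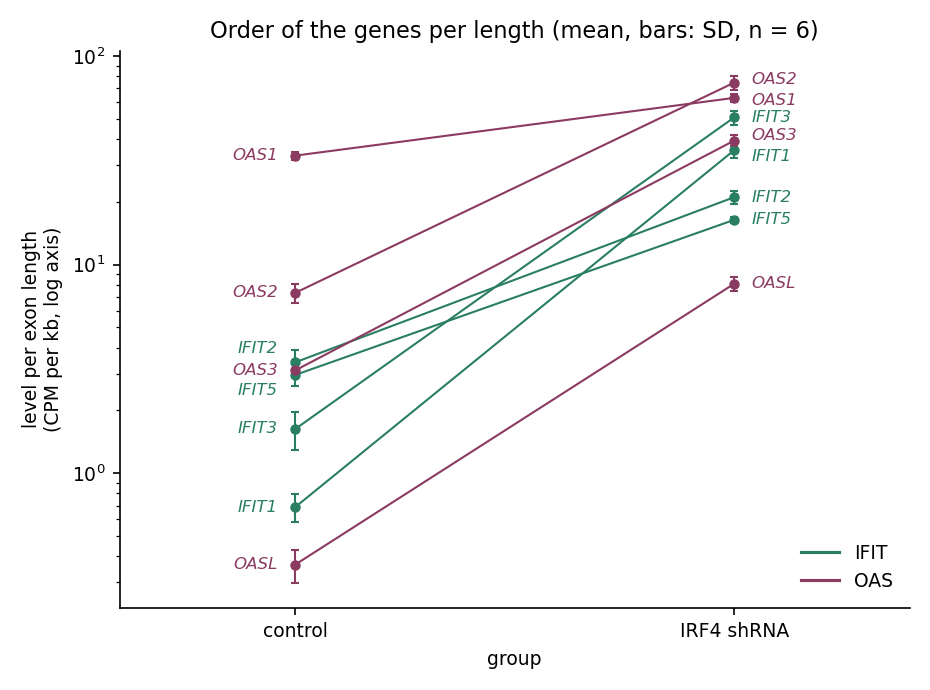
Level per length (CPM per kb of merged exons, log axis; mean with SD bars, n = 6 per group) of each gene in controls and with IRF4 shRNA, IFIT genes in green and OAS genes in purple. In controls the genes spread from 0.365 (OASL) to 33.3 CPM per kb (OAS1), and with IRF4 shRNA from 8.09 (OASL) to 74.5 CPM per kb (OAS2), with lines crossing as IFIT1 and IFIT3 pass IFIT2 and IFIT5.

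The order of the levels per length differed between the groups. In controls OAS1 was highest at 33.3 ± 1.45 CPM per kb, then OAS2 at 7.32 ± 0.750. IFIT2, OAS3 and IFIT5 followed at 3.40 ± 0.512, 3.11 ± 0.213 and 2.96 ± 0.344, and library ranges of neighbours in this trio overlapped. IFIT3 (1.63 ± 0.334), IFIT1 (0.688 ± 0.105) and OASL (0.365 ± 0.0655) came last, each with a range separate from the next. With IRF4 shRNA OAS2 (74.5 ± 5.60) stood above OAS1 (63.0 ± 2.68) and IFIT3 (50.8 ± 3.94), with separate ranges. OAS3 (39.3 ± 2.40) and IFIT1 (35.4 ± 2.98) overlapped, and IFIT2 (21.04 ± 1.45), IFIT5 (16.4 ± 0.533) and OASL (8.09 ± 0.608) were each separate (CPM per kb, SD, n = 6). With the longest transcript in place of merged exons, which makes OAS1 shorter, OAS1 (129 CPM per kb) stood above OAS2 (98.6 CPM per kb) with IRF4 shRNA too.

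Within each library series all 8 genes rose as well, by the same test on 3 against 3 libraries. In series 1, 25.8% of 16572 tested genes were called higher (50.5% in either direction), and in series 2, 20.2% of 16614 (38.1%). A rise of at least 2-fold was called for 7 members in series 1 (7.42% of tested genes) and 8 in series 2 (5.41%). All 8 genes had separate groups in each series, as did 29.9% and 26.0% of tested genes with the IRF4 shRNA libraries higher. The median log2 fold change of the 8 genes was 3.40 in series 1 and 3.61 in series 2. OAS1 rose 1.78-fold in series 1 and 2.02-fold in series 2, and IFIT1 rose 48.2-fold and 55.1-fold.

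**Figure D3:**
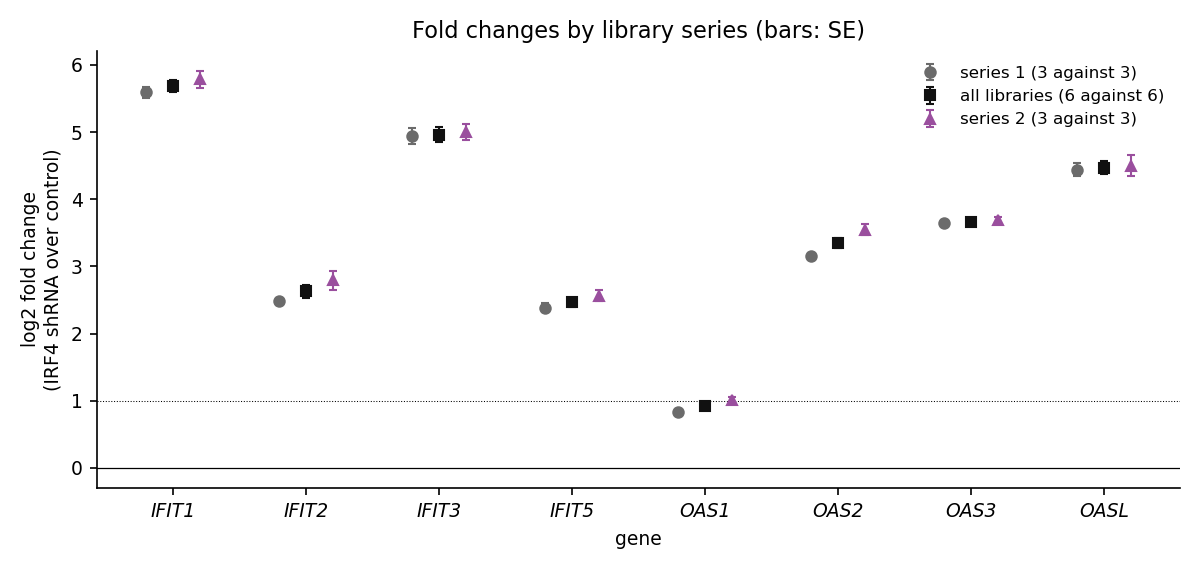
Log2 fold change of each gene (IRF4 shRNA over control, bars SE) in library series 1, in all libraries and in series 2, with a dotted line at a 2-fold rise. All estimates lie above 0, and the estimates of the 2 series differ most for OAS2 (3.16 and 3.54).

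The difference of the effect between the series was tested as an interaction, where a positive value is a larger effect in series 2. All 8 estimates were positive, from 0.03 (OAS3) to 0.37 (OAS2), with a median of 0.16 against 0.02 over all tested genes. They come from the same libraries, so the 8 signs are not independent. In some fits with libraries left out, the estimates of IFIT3, IFIT5, OAS3 and OASL were negative. Only OAS2 passed (log2 0.37, SE 0.09, edgeR adjusted p = 0.0207), 1 of 8. Of all tested genes, 5.07% were called in that direction and 14% in either. In series 1 OAS2 lay at 47.6 to 51.3 CPM in controls and 431 to 444 CPM with IRF4 shRNA, and in series 2 at 39.9 to 48.4 and 476 to 522 CPM. Series 2 was thus lower in 2 of its 3 controls (replicates 5 and 6, at 39.9 and 40.2 CPM) and higher in all 3 IRF4 shRNA libraries. Those controls are the ones that stood apart in GC content, and the part of GC content in the difference was not tested. Without both of them the OAS2 difference was 0.19 (edgeR adjusted p = 0.246). The call was also lost without control replicate 3 (0.34, edgeR adjusted p = 0.0621), control replicate 5 (0.32, 0.0602), IRF4 shRNA replicate 1 (0.36, 0.0503) or IRF4 shRNA replicate 5 (0.32, 0.0567). IRF4 itself was lower in series 1 (507 to 525.7 CPM) than in series 2 (688 to 715 CPM) with IRF4 shRNA, and its part in the OAS2 difference was not tested.

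OAS1 had an interaction of 0.16 (SE 0.06, edgeR adjusted p = 0.085), and its IRF4 shRNA libraries ran from 291 to 311 CPM in series 1 and from 317 to 327 CPM in series 2. It passed by DESeq2 (adjusted p = 0.0488) and without control replicate 1 (0.20, edgeR adjusted p = 0.0398) or control replicate 4 (0.17, edgeR adjusted p = 0.0421). OAS3 differed between series in the other direction and in both groups. Controls lay at 26.4 to 28.1 CPM in series 1 and 23.6 to 25.0 CPM in series 2, and IRF4 shRNA libraries at 331 to 346 and 294 to 321 CPM. Its fold changes were 12.5 and 12.8, with an interaction of 0.03 (SE 0.07, edgeR adjusted p = 0.828). The IFIT genes and OASL had overlapping series ranges in both groups, with interactions from 0.04 (SE 0.21, IFIT3) to 0.29 (SE 0.16, IFIT2), and edgeR adjusted p from 0.218 to 0.92.

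The extreme values of several members fell in the same libraries. How often each library was the extreme over all tested genes was not counted, so this cannot be called particular to the 8 genes. Control replicate 3 was the highest control for 6 of the 8 genes (all but IFIT2 and OASL), and control replicate 5 was the lowest for 5 (IFIT1, IFIT2, IFIT5, OAS1 and OAS2). With IRF4 shRNA, replicate 5 was the highest for 6 (all but IFIT5 and OAS3) and replicate 4 the lowest for 5 (IFIT1, IFIT3, IFIT5, OAS3 and OASL). These steps were small beside the group difference: without IRF4 shRNA replicate 5 the log2 fold change of IFIT1 was 5.65, and without control replicate 5 it was 5.63.

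The genes that carry the interferon signal or work beside IFIT and OAS were taken from a list of 31 by role. Of these, 26 were tested, and 15 rose and 1 fell, while 24.2% and 23.9% of all tested genes did. The median log2 fold change of the list was 0.44. Of 9 receptor and signalling genes 6 rose and 1 fell. STAT2, a transcription factor of the interferon pathway, rose 1.33-fold (192 ± 10.9 to 255 ± 34.6 CPM), and IRF9, its DNA-binding partner, 1.80-fold (47.7 ± 2.91 to 85.7 ± 1.98 CPM). IRF7, a factor that amplifies interferon production, rose 4.01-fold with a wide spread (17.4 ± 7.09 to 70.0 ± 18.3 CPM). The receptor gene IFNAR1 fell 1.13-fold (log2 -0.18, SE 0.05, edgeR adjusted p = 0.00452), a call lost with library size alone, where 0 genes of the list were lower. IFNAR2 (log2 0.10, SE 0.05) and the kinase gene TYK2 (log2 0.02, SE 0.08) did not pass.

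**Figure D4:**
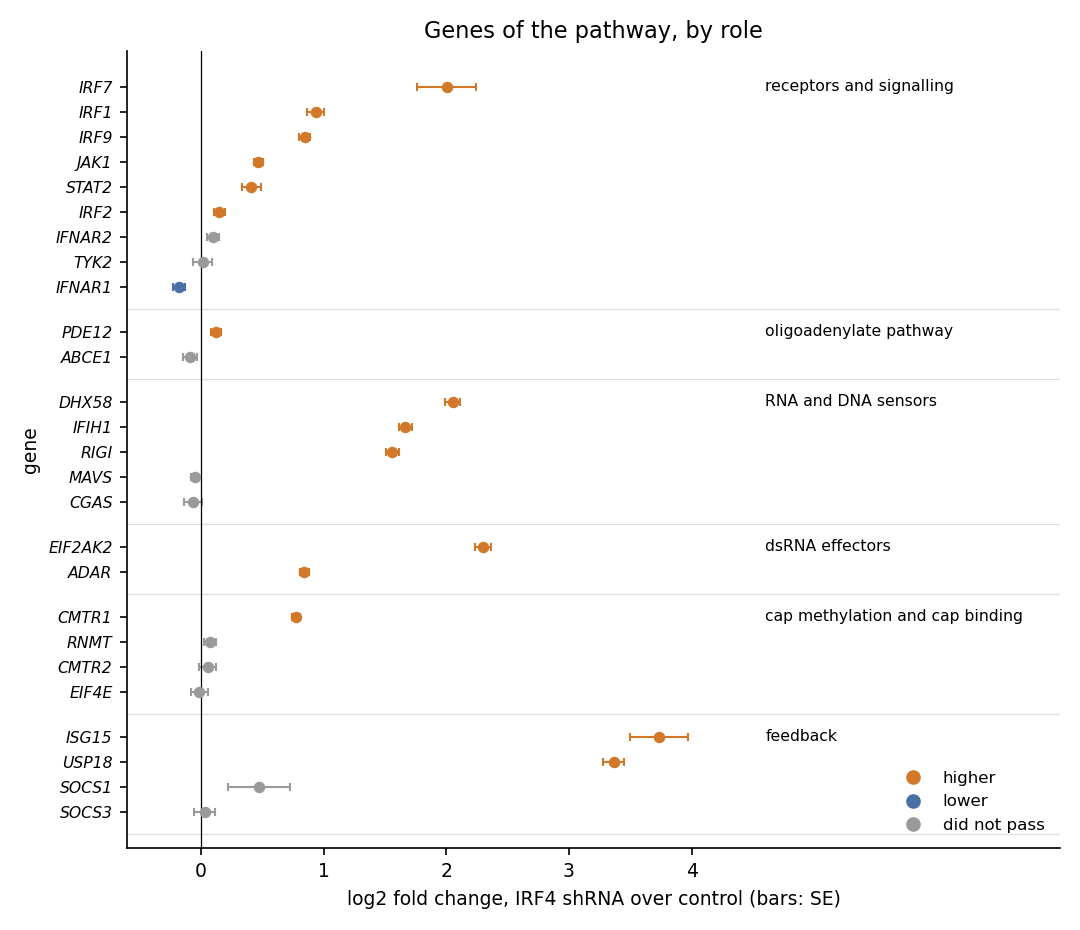
Log2 fold change (IRF4 shRNA over control, bars SE) of the 26 tested pathway genes by role, orange for higher, blue for lower and grey for those that did not pass. ISG15 and USP18 lie farthest right, and the cap genes other than CMTR1 lie near 0.

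Of 2 genes that act downstream of the OAS enzymes, PDE12, whose product degrades the oligoadenylates, rose 1.09-fold (47.2 ± 1.17 to 51.4 ± 2.55 CPM). ABCE1 did not pass (log2 -0.09, SE 0.06). Of the sensors, RIGI, IFIH1 and DHX58 rose 2.95-, 3.18- and 4.15-fold, while the adaptor gene MAVS (log2 -0.05, SE 0.03) and the DNA sensor gene CGAS (log2 -0.06, SE 0.08) did not pass. EIF2AK2, which encodes the double-stranded RNA kinase PKR, rose 4.92-fold, and the RNA editing gene ADAR 1.79-fold.

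Of 4 genes that make or bind the cap read by IFIT1, CMTR1 rose 1.71-fold, from 77.3 ± 1.55 to 132 ± 4.86 CPM. CMTR1 adds the methyl group whose absence IFIT1 recognises. CMTR2 (log2 0.06, SE 0.07), RNMT (log2 0.07, SE 0.05) and EIF4E (log2 -0.01, SE 0.07) did not pass. Of 4 feedback genes USP18 rose 10.3-fold (4.34 ± 0.401 to 44.7 ± 4.89 CPM) and ISG15 13.3-fold (12.3 ± 4.98 to 164 ± 35.9 CPM). SOCS1 and SOCS3 did not pass (log2 0.47, SE 0.25 and 0.03, SE 0.09). Of the ligands, IFNB1 had 4 counts over the 6 controls and 28 over the 6 IRF4 shRNA libraries, and IFNG had 0 and 10. No library exceeded 0.196 CPM for IFNB1 or 0.113 CPM for IFNG, and both were too low to be tested.

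Within 250 kb of a member, 24 other genes were in the table and 14 were tested, of which 5 rose and 4 fell, against 24.2% and 23.9% of all tested genes. Those that rose were 2 of 2 at the IFIT locus and 3 of 7 at the locus of OAS1 to OAS3, where none fell, and all 4 that fell were among the 5 tested at OASL, where none rose. Their log2 fold changes ran from -1.18 (P2RX4) to 0.81 (RASAL1), with a median of -0.05, while the members ran from 0.92 to 5.68. LIPA, a lysosomal lipase gene, covers IFIT2, IFIT3 and IFIT1 on the opposite strand (89213569 to 89414557). It went from 49.7 ± 3.99 to 59.8 ± 4.43 CPM (log2 0.27, SE 0.06, edgeR adjusted p = 0.00182). Whether counting used strand is not stated, so reads of LIPA and of these IFIT genes may not be told apart where their exons overlap. DTX1, 45.0 kb from OAS2, rose by 0.33 on the log2 scale (SE 0.08).

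**Figure D5:**
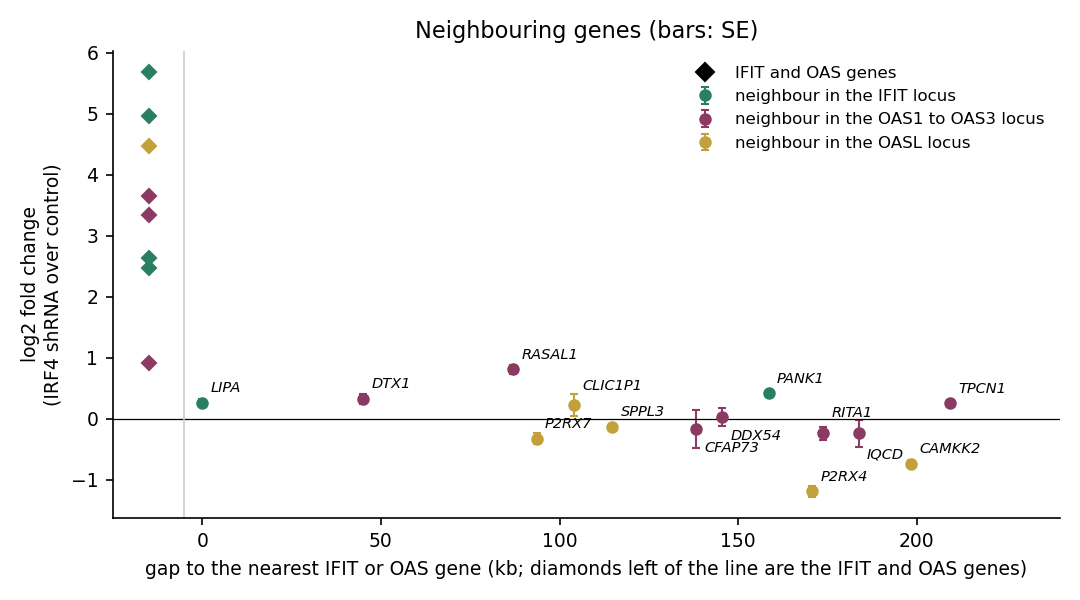
Log2 fold change (IRF4 shRNA over control, bars SE) of the 14 tested neighbours against their gap in kb to the nearest IFIT or OAS gene, coloured by locus, with the 8 IFIT and OAS genes as diamonds at the left. Neighbours lie between -1.18 and 0.81, and all 8 diamonds lie above them, the lowest being OAS1 at 0.92.

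Among tested genes other than the 8 members, those with profiles most like each member were sought. The measure was the root mean square difference between centred log2 CPM over the 12 libraries. OAS1 was closest to ADAR (difference 0.0479), OAS2 to SLFN5 (0.104), OAS3 to DDX60 (0.163) and OASL to the chemokine gene CCL4 (0.171). IFIT3 was closest to XAF1 (0.137), IFIT5 to GFOD1 (0.103) and IFIT2 to AC083862.1 (0.161). IFIT1 had no near match outside the 8, the closest being CCL3 at 0.366. Within the 8, IFIT2 was closer to IFIT5 (0.145) and IFIT1 to IFIT3 (0.363) than to these genes. The mean profile of the 8 genes was nearest to MX1, the gene of an antiviral GTPase (0.0962; 66.4 ± 5.81 to 751 ± 54.0 CPM), followed by USP18, DDX60L, DDX60 and LGALS9. The measure is ruled by the size of the group difference, so it ranks genes with a like fold change first.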

How the data were processed

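Per the labels' protocols, poly(A) libraries from TMD8 cells were made with a TruSeq stranded kit and read as paired ends of 100 bases. The submitters' processing notes name STAR, HTSeq and build hg38. The table the authors deposited holds estimated counts (unit expected counts, not normalized) for 26318 genes in 12 libraries (66.6% whole at a tolerance of 1e-06); the step that gave fractions, the annotation and the use of strand are not given in the sources used here. Gene ends were reduced by 1, since they lie 1 past the last base. Counts were rounded, which moved no member's count by more than 0.00518%.

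Genes passing filterByExpr (minimum count 10) were tested with edgeR 4.0.16 in R 4.3.3 (TMM, quasi-likelihood), and those with Benjamini-Hochberg adjusted p under 0.05 over all tested genes were called. SE is the log2 fold change over the square root of F. Fold is 2 to the fitted log2 fold change. The fit was checked on simulated counts. CPM is given as mean ± SD. No libraries of a group and series agreed within counting error (chi-square over its degrees of freedom from 2.73 to 31.9), and each was counted as 1 sample; p-values reflect the spread between these libraries alone, and that spread may be technical. Counting floors cover counting error only.

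The members, gene lists and tests were chosen with earlier results of these data known. Named genes were the 8 members, IRF4, the pathway list and tested neighbours within 250 kb. The closest non-member to each member and the 5 non-members closest to their mean profile were named too. A few listed genes are not reported here and were left out of the list counts. RIGI appears under its older symbol DDX58. IFNA1, IFNA2 and IFNL1 were not analysed here, nor were the markers CD3D, CD3G, NCAM1 and FCGR3A. Alternatives were DESeq2 1.42.0, limma 3.58.1 after removing GC trends, other scalings, filters and covariates, and left-out libraries.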

Additional observations from a re-analysis of the deposited data

Results flagged for a closer look

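IFIT2 in control replicate 5 was 9.80 CPM, a sample far from the other 5 controls, and IFIT2 in IRF4 shRNA replicate 5 was 98.1 CPM, far above the other 5 IRF4 shRNA libraries. These were 2 flags among 18 groups examined, and chance flags about 1 in 20. Both lie on the outer side of their group, so they raise the fold change. Without control replicate 5 the log2 fold change of IFIT2 was 2.54, and without IRF4 shRNA replicate 5 it was 2.60, against 2.63 with all libraries.

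OAS2 differed between library series by 0.37 on the log2 scale in the interaction test (edgeR adjusted p = 0.0207), and IRF4 itself by 0.46 (edgeR adjusted p = 0.0011). Both are larger, that is less negative for IRF4, in series 2. In each series all 3 IRF4 shRNA libraries lay above all 3 controls for OAS2 and below them for IRF4.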

How the results depend on the processing

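All 8 members passed upward under each of the 24 alternatives for all libraries and the 9 for each series, left-out libraries included, and no member's log2 fold change there left the range from 0.80 (OAS1, series 1) to 5.89 (IFIT1, series 2). The replicate block kept 8 of 8 members and called 6942 of all genes, against 7918. Same-numbered libraries had correlations of deviations from -0.26 to 0.13, and 0 of 6 control libraries correlated best with their own number. No pairing by number shows in these values, which cannot tell whether libraries were paired by design. With counts summed per group and series, 4242 of all genes were called. The interaction rests on few libraries. It called 1 member of 8 and 2308 genes over all libraries, 2 members by DESeq2, 0 members and 206 genes without control replicates 5 and 6 (chosen after seeing the data), and 0 to 2 members and 736 to 5357 genes with 1 library left out; the cause was not tested. Signs of small interactions also turned, none of them called. With 1 library left out, IFIT3 ran from -0.20 (without control replicate 3; also negative without control replicate 5, -0.04, and IRF4 shRNA replicate 5, -0.05) to 0.20, OASL from -0.076 (without control replicate 4; also -0.07, -0.04 and -0.05 without control replicates 3 and 5 and IRF4 shRNA replicate 5) to 0.27, and OAS3 from -0.0083 (without IRF4 shRNA replicate 5) to 0.053. Leaving out control replicates 5 and 6 together gave -0.020 for OAS3 and -0.0059 for IFIT5. The pathway list had 1 lower gene, IFNAR1, against 2 once control replicates 5 and 6 were left out and 0 on unscaled library sizes, and 15 higher genes, against 16 and 17 under these settings and 19 after GC trends were removed. Per length, 12 of 16 positions in the order were the same with the longest transcript. Depth limits OASL and IFIT1 most, with 33 and 85 counts in their lowest controls.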
